A study of Mus musculus with 40 samples.

Results

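The 10 astrocyte genes described here were Slc1a2, Slc1a3, Glul, Gja1, Aqp4, Apoe, Aldoc, Aldh1l1, Gfap and Sox9, chosen by symbol from the 41388 genes counted in every library. Each symbol matched 1 gene, all 10 passed the filter on low counts in both mouse lines, and none was at 0 in any of the 40 libraries. The forebrains came from 2 lines of mice harvested at 21 days, each carrying a Cre-dependent EGFP-tagged ribosomal protein (EGFP/Rpl10a). In RBP4-TRAP mice the Rbp4-Cre transgene drives the tag in layer 5 pyramidal neurons, and in VGAT-TRAP mice Slc32a1-cre drives it in GABAergic neurons. Each line gave 5 replicates, each a pool of forebrains of both sexes as available, although the labels give the tissue as cortex. From each pool 4 libraries were made in parallel. Whole cell homogenate (WCH) is RNA of the tissue as dissected, and TRAP is RNA bound to the captured tagged ribosomes of that homogenate. The synaptoneurosome fraction (SNF) is the gradient band that holds pinched-off synapses with what adheres to them, and SynapTRAP (ST) is the same ribosome capture done on the SNF. No animal lacked the tag, so no mock capture was compared, and the tag was driven in neurons in both lines, not in astrocytes.

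Astrocytes wrap synapses with fine processes that clear glutamate and potassium from the cleft, and they ring blood vessels with endfeet. Their mRNAs are known to be carried into those processes, where some are translated, while transcription factors are made near the nucleus. Slc1a2 (GLT-1) and Slc1a3 (GLAST) encode the main glutamate transporters of these processes, and Glul encodes glutamine synthetase, which turns the glutamate taken up into glutamine. Gja1 encodes the main gap junction protein of astrocytes and Aqp4 the water channel of the endfeet. Apoe encodes a secreted lipid carrier, Aldoc a glycolytic aldolase, Aldh1l1 a folate-metabolising enzyme, Gfap an intermediate filament protein and Sox9 a transcription factor of astrocytes.

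The genes on which the results below turn lie, in the coordinates of the deposited gene tables, which equal those of GENCODE M21 (GRCm38) for these 4 genes, at chr2:102658659-102790784 on the plus strand (Slc1a2), chr11:112782224-112787760 on the plus strand (Sox9), chr6:90486427-90600203 on the plus strand (Aldh1l1) and chr11:102887336-102900912 on the minus strand (Gfap). Counts were summed over each gene's exons. By whole span from start to end, Slc1a2 overlaps Gm13872, Aldh1l1 overlaps Gm15756, Gfap overlaps Gm26668, and Glul overlaps Teddm2 and Mir8114. Whether their exons overlap was not tested. The library kit does not mark strand, and the study counted only unambiguous reads that aligned uniquely. Any effect of these overlaps on the counts is therefore not known.

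Libraries held 14259535 to 22037703 counts, and 8950847 to 21976631 after mitochondrial, rRNA and tRNA genes were left out. Levels are given as cpm, counts scaled to the latter total, so that 1 count was worth 0.0455 to 0.112 cpm. The mitochondrial share was at most 0.511% in TRAP libraries and reached 41.9% in SNF libraries. Some libraries stood apart in the astrocyte genes. The RBP4 TRAP library of replicate 5 was the highest of its group for 9 of the 10 genes, and the VGAT TRAP library of replicate 3 for 10 of 10. The SNF libraries of replicate 3 were the highest for 10 of 10 in both lines and also had the highest mitochondrial shares, 40.2% and 41.9%. The library labelled RBP4 ST replicate 4 held 49.9 cpm of Slc32a1, the vesicular GABA transporter, where the remaining RBP4 ST libraries held 10.9 to 19.7 cpm and the VGAT ST libraries 23.3 to 51.3 cpm. Its 885 cpm of Slc17a7, the vesicular glutamate transporter, lay within the 550 to 1084 cpm of the RBP4 ST group and above the 396 to 713 cpm of the VGAT ST group, so that the first gene went against its label and the second did not. As a check of the tagged neurons, in TRAP against WCH the GABA-synthesising enzyme gene Gad1 changed by −1.91 (RBP4) and 2.28 (VGAT) on the log2 scale, and Slc17a7 by 0.61 and −2.55. The ST capture gave no such clear separation. In ST against SNF the 3 genes Slc32a1, Gad1 and Gad2 had medians of −0.60, with 1 called lower (RBP4), and 0.11, with 1 called higher (VGAT). The 2 glutamatergic genes Slc17a7 and Fezf2 had medians of 0.17 and −0.42, with 0 called. Where leaving out the pool or library moved a result most, both values are given.

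In the tissue as dissected, the 10 genes spanned a wide range and had much the same order in both lines. Per kilobase of exon, Aldoc was the highest, at 547 ± 224 cpm per kb (SD, n = 5) in RBP4 WCH and 488 ± 81.5 in VGAT WCH. Slc1a2 followed at 194 ± 57.7 and 163 ± 45.3 cpm per kb. Without division by exon length this order was reversed, with Slc1a2 at 2546 ± 758 (RBP4 WCH) and 2143 ± 595 cpm (VGAT WCH). Aldoc was then at 1784 ± 731 and 1593 ± 266 cpm. The study states that its reads lean heavily towards the tail end of transcripts. The ranks of genes of unlike length therefore depend on the division by exon length, whose fitness for these reads was not tested. Apoe, Glul, Gja1 and Slc1a3 formed a middle tier of 71.8 to 122 cpm per kb whose SDs overlapped in both lines. Aqp4 (18.8 ± 4.72 and 21.2 ± 6.19 cpm per kb), Gfap (16 ± 2.76 and 16.8 ± 1.57), Sox9 (14.1 ± 2.16 and 15.1 ± 2.10) and Aldh1l1 (12.3 ± 5.04 and 10.6 ± 0.929) were the lowest, and neighbours among these 4 differed by less than the sum of their SDs, except Sox9 and Aldh1l1 in VGAT WCH. In bulk homogenate, the number of astrocytes and the RNA per astrocyte cannot be told apart. The 10 genes together made up a median of 0.580% of counts in RBP4 WCH and 0.551% in VGAT WCH, 0.0899% and 0.0574% in TRAP, 1.75% in SNF of both lines, and 1.48% and 2.18% in ST.

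**Figure D1:**
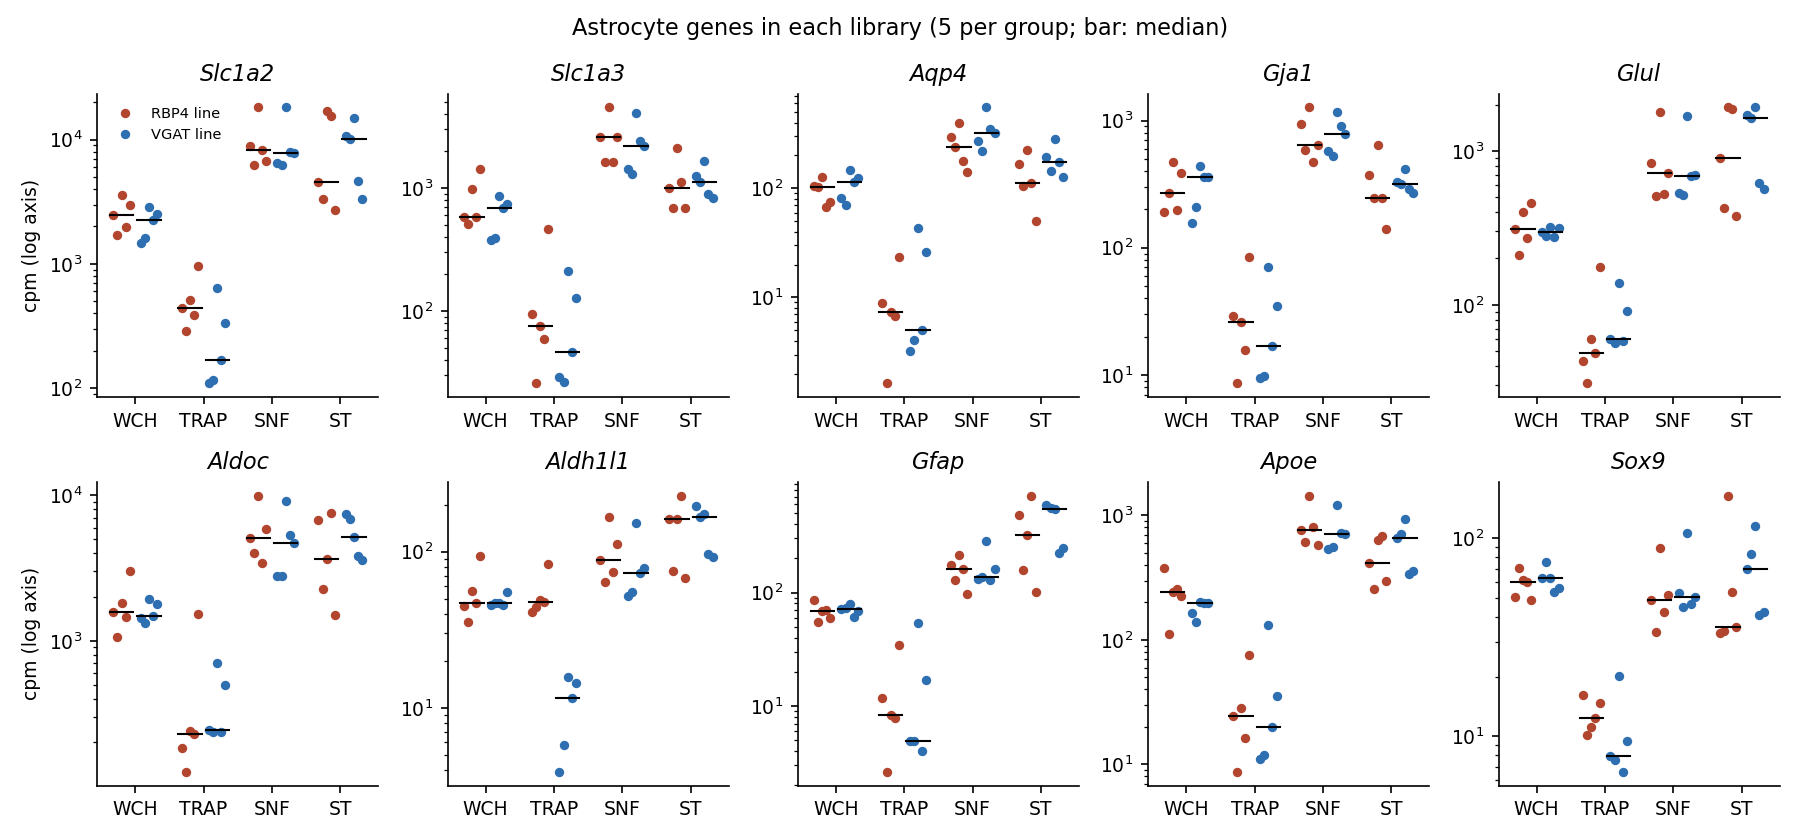
Level in cpm of the 10 astrocyte genes in each of the 40 libraries on log axes, by fraction, with RBP4-TRAP in red and VGAT-TRAP in blue, and bars at group medians. Most panels step down from WCH to TRAP and up to SNF and ST, whereas Sox9 stayed between 33.6 and 106 cpm in SNF against 48.6 to 75.8 cpm in WCH.

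The capture from the homogenate was compared with the homogenate to ask how much astrocyte RNA is carried along with ribosomes of tagged neurons. In RBP4-TRAP mice 9 of the 10 genes were lower in TRAP than in WCH, beside 31.5% of all genes tested, and in VGAT-TRAP mice 10 of 10 were lower, beside 41.8%. Aqp4 and Gja1 fell the most in the RBP4 line and Gja1 the most in the VGAT line, with log2 fold changes of −3.32 (SE 0.48) and −3.21 (SE 0.50) in RBP4-TRAP and −2.72 (SE 0.52) and −3.43 (SE 0.45) in VGAT-TRAP mice. The median of the 10 genes was −2.34 and −2.40 on the log2 scale, against −0.34 and −0.31 over all genes. Without RBP4 replicate 5 the 9 RBP4 falls ran from −2.28 (Sox9) to −4.03 (Aqp4), against −1.95 (Aldoc) to −3.32 with it. Without VGAT replicate 3 the VGAT falls ran from −2.13 (Glul) to −3.93 (Gja1), against −1.88 (Glul) to −3.43 with it, and Gfap moved the most, from −2.06 to −3.13.

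Among the perisynaptic genes, Slc1a2 was at 2456, 1714, 3584, 1983 and 2995 cpm in WCH of RBP4 replicates 1 to 5 and at 445, 286, 516, 389 and 959 cpm in their TRAP libraries. In VGAT replicates it was at 1465, 1620, 2869, 2239 and 2522 cpm in WCH and at 109, 117, 641, 168 and 333 cpm in TRAP. Every TRAP library lay below every WCH library of its line, and the highest TRAP values came from RBP4 replicate 5 and VGAT replicate 3. All 10 genes were apart in this way in the VGAT line, beside 34.7% of all genes, and 8 of 10 in RBP4-TRAP mice, beside 23.8%. Aldoc overlapped there through the TRAP library of replicate 5, at 1538 cpm against 126 to 241 cpm in the other 4. In that library the sum of 5 oligodendrocyte genes (Mbp, Mog, Mag, Cnp, Mobp) was 3899 cpm against 244 to 578 cpm in the other RBP4 TRAP libraries, and the sum of Slc32a1, Gad1 and Gad2 was 434 cpm against 89.5 to 137 cpm. In the VGAT TRAP library of replicate 3 the oligodendrocyte sum was 1093 cpm against 245 to 995 cpm, and Slc17a7 was 155 cpm against 24.6 to 48.8 cpm. Each of these libraries held more of the untagged neurons' markers, and whether samples were mixed was not tested. Of the 5 endothelial genes named below, up to 1 (RBP4) and 2 (VGAT) were at 0 in a TRAP library. The part of other cell types in these levels was not tested. The 9 and 10 calls were made in each of the alternative fits, including those without each replicate in turn. Over all genes the split of higher to lower calls, 1427 to 5372 in the RBP4 line, was 3296 to 3815 with TMM factors, and 3561 to 7106 in the VGAT line was 4987 to 5530.

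The exception was Aldh1l1 in the RBP4 line. Its level there was 44.9, 35.3, 56.3, 46.7 and 93.8 cpm in WCH and 40.9, 44.4, 48.7, 47.6 and 83.5 cpm in TRAP of replicates 1 to 5. These groups overlapped, with replicate 5 highest in both, and the log2 difference of −0.06 (SE 0.32, edgeR adjusted p = 0.891) turned positive, to 0.20 and 0.21, with DESeq2 and TMM factors. Aldh1l1 of VGAT replicates was at 45.8, 46.7, 46.8, 45.3 and 55.4 cpm in WCH and at 3.89, 5.77, 15.8, 11.5 and 14.5 cpm in TRAP. Every VGAT TRAP library was below every VGAT WCH library, a log2 difference of −2.22 (SE 0.33, edgeR adjusted p = 8.5e-06). Set directly against each other, the TRAP libraries of the lines differed in Aldh1l1 by 2.36 on the log2 scale (SE 0.35, edgeR adjusted p = 3.7e-06), RBP4 higher, with all 5 RBP4 libraries above all 5 VGAT libraries, beside 12.9% of all genes called higher, 15.1% lower and 9.58% apart with RBP4 higher. Without any 1 replicate of either line the difference was 2.14 to 2.56 and remained past the threshold each time. The other 9 genes ranged from −0.78 (Aqp4) to 0.92 (Slc1a2) in that comparison and missed the threshold. Without RBP4 replicate 5 Aldoc was lower in RBP4 TRAP (−0.98, edgeR adjusted p = 0.0278), and without VGAT replicate 3 Slc1a2 was higher (1.51, edgeR adjusted p = 0.0213).

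In the other 3 fractions none of the 10 passed the edgeR test between lines in WCH (log2 differences of −0.18 to 0.43), SNF (−0.45 to 0.31) or ST (−0.48 to 0.03), 0 did so at an unadjusted p under 0.05, and 0 were called with DESeq2 or the likelihood ratio test. Over all genes, 0.00592% were called in each direction in WCH. The corresponding shares were 0.00564% higher and 0.0113% lower in SNF, and 0.0592% higher and 0.266% lower in ST. The step from TRAP to ST differed between lines for Aldh1l1 alone among the 10, by −2.43 (SE 0.47, edgeR adjusted p = 0.000592, beside 5.79% of all genes lower). Without the library labelled RBP4 ST replicate 4 this was −2.68.

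**Figure D2:**
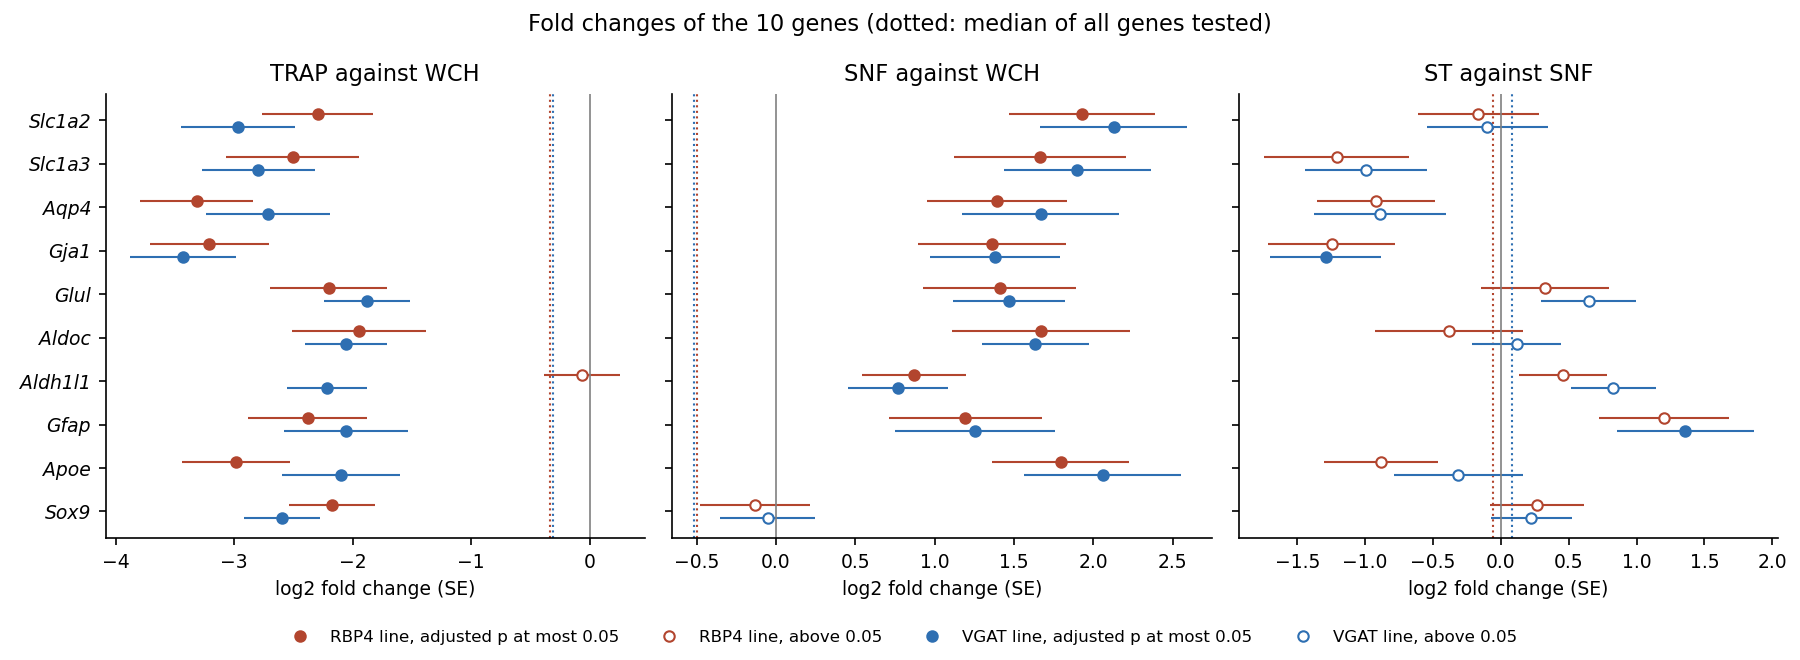
Log2 fold changes of the 10 astrocyte genes with their SE for TRAP and SNF, each against WCH, and for ST against SNF, RBP4-TRAP in red and VGAT-TRAP in blue, filled where the edgeR adjusted p was at most 0.05, with dotted lines at the median of all genes tested. Fold changes fell to −3.43 in TRAP, rose to 2.13 in SNF and lay between −1.29 and 1.36 in ST against SNF.

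The synaptoneurosome fraction was compared with the homogenate to see which astrocyte transcripts go with pinched-off synapses, using the same WCH libraries as above. In both lines 9 of the 10 genes were higher in SNF, beside 13.4% (RBP4) and 19.3% (VGAT) of all genes, and each of those 9 was higher in 5 of 5 pools. Slc1a2 rose the most, 3.80-fold (log2 1.93, SE 0.46) and 4.37-fold (log2 2.13, SE 0.46). Apoe rose by 1.79 (SE 0.43) and 2.06 (SE 0.50) on the log2 scale, Slc1a3 by 1.67 (SE 0.54) and 1.90 (SE 0.46), Aldoc by 1.67 (SE 0.56) and 1.64 (SE 0.34), and Glul by 1.41 (SE 0.48) and 1.47 (SE 0.35). The smallest rises were those of Aldh1l1, 0.87 (SE 0.33) and 0.77 (SE 0.32). The median of all genes was −0.50 and −0.52, and that of the 10 genes 1.4 and 1.55. Over all genes the split of higher to lower calls, 2286 to 6161 in the RBP4 line, was 3284 to 3048 with TMM factors and 3781 to 2545 with DESeq2. The VGAT split of 3283 to 7680 was 4187 to 4747 with TMM factors. With each of these scalings 9 of the 10 genes were still called higher in both lines, and 7 were so with no genes left out.

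Slc1a2 reached 8958, 6272, 18203, 8254 and 6732 cpm in SNF of RBP4 replicates 1 to 5 and 6535, 6273, 18229, 7970 and 7825 cpm in SNF of VGAT replicates. Every SNF library was above every WCH library of its line, beside 10.5% and 15.2% of all genes, and the libraries of replicate 3 stood far above the other 4 in both lines. In the RBP4 line the count of 9 rested on single pools, being 2 without replicate 1, 4 without replicate 3 and 7 to 9 without each of the others. For VGAT it was 8 or 9 without any 1 replicate. Other glial genes were higher in SNF too. The median sum of the 5 oligodendrocyte genes was 5161 and 5233 cpm in SNF against 2401 and 2381 cpm in WCH, and that of 7 microglia genes (Cx3cr1, Csf1r, C1qa, C1qb, Aif1, P2ry12, Tmem119) 370 and 524 cpm against 169 and 233 cpm. Neuron genes went both ways. A sum of 6 neuron genes (Snap25, Syt1, Rbfox3, Tubb3, Stmn2, Map2) was 10718 and 10348 cpm in SNF against 13803 and 13795 cpm in WCH. That of Slc32a1, Gad1 and Gad2 was 462 and 432 cpm against 769 and 903 cpm. The sum of Slc17a7 and Fezf2 was instead higher in SNF, at 743 and 804 cpm against 382 and 380 cpm. The part of these cell types in the rise of the astrocyte genes was not tested.

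Sox9 did not pass the test in SNF against WCH. It was at 50.3, 70.4, 61.6, 60.1 and 48.6 cpm in WCH of RBP4 replicates 1 to 5 and at 48.5, 33.6, 89.0, 42.6 and 51.9 cpm in their SNF libraries. In VGAT replicates it was at 62.9, 75.8, 63.0, 53.4 and 56.1 cpm in WCH and at 53.0, 45.1, 106, 46.5 and 50.6 cpm in SNF. In both lines the SNF library of replicate 3 was above all WCH libraries and the groups overlapped. The log2 differences of −0.13 (SE 0.35, edgeR adjusted p = 0.763) and −0.05 (SE 0.30, edgeR adjusted p = 0.884) were positive, 0.23 to 0.41, with TMM factors, DESeq2 or its size factors, so no direction can be given.

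A ratio of 2 genes within a library does not depend on library size, and was used to set the transporter against the transcription factor. Among the astrocyte genes named at the outset, Slc1a2 had the highest and Sox9 the lowest log2 change in SNF against WCH. The values were 1.93 and −0.13 (RBP4) and 2.13 and −0.05 (VGAT). The ratio sets these extremes against each other in the same libraries, so its p-values are not independent of the results above. The ratio of Slc1a2 to Sox9 (cpm over cpm) had a median of 48.9 in RBP4 WCH, with a range of 24.4 to 61.6, and of 187 in RBP4 SNF, with a range of 130 to 205. The VGAT medians were 41.9 (21.4 to 45.6) and 155 (123 to 173). The groups did not overlap in either line, and the SNF ratio was higher in 5 of 5 pools of each. The mean log2 difference was 2.06 (SE 0.28) for RBP4 and 2.17 (SE 0.26) for VGAT, each with an exact two-sided permutation p = 0.00794, the smallest that 5 against 5 libraries allow, and an adjusted p of 0.0476 over the 12 ratio tests. Paired within pools, the exact permutation p was 0.0625, the smallest that 5 pairs allow. In TRAP the medians were 31.6 and 25.5 and in ST 104 and 123, and none of the other ratio tests passed the threshold.

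**Figure D3:**
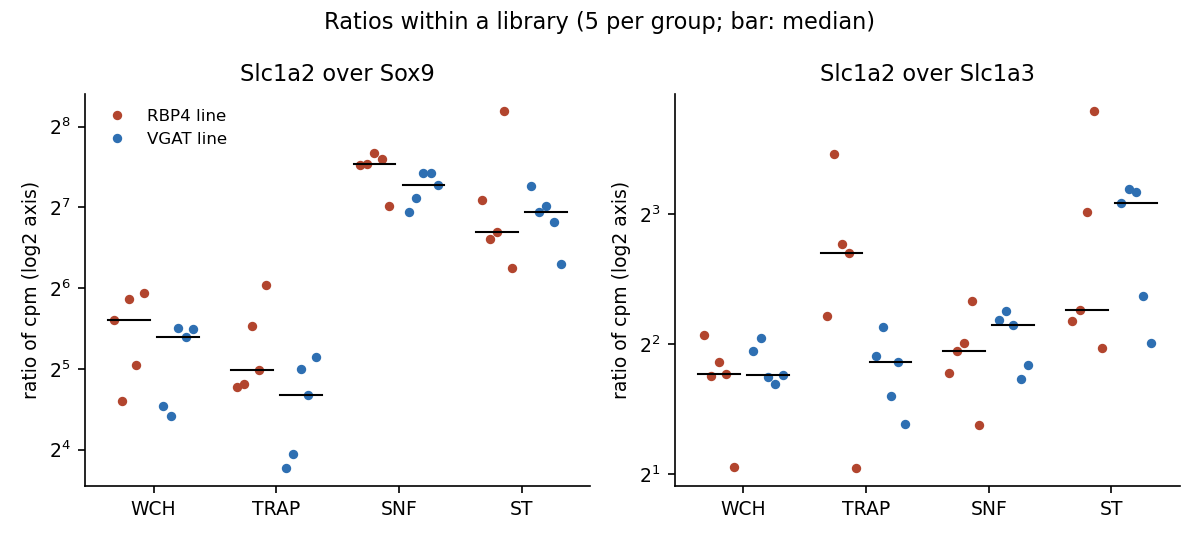
Ratio of Slc1a2 to Sox9 and of Slc1a2 to Slc1a3 in each library on log2 axes, by fraction, RBP4-TRAP in red and VGAT-TRAP in blue. Slc1a2 over Sox9 sat between 123 and 205 in SNF and between 21.4 and 61.6 in WCH, while Slc1a2 over Slc1a3 overlapped between the fractions.

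Between the glutamate transporters the ratio shifted less. Slc1a2 over Slc1a3 had medians of 3.41 and 3.39 in WCH and 3.86 and 4.44 in SNF of the RBP4 and VGAT lines. In ST it was 4.81 and 8.51, higher than in SNF in 5 of 5 pools of each line. The mean log2 differences of 0.75 (SE 0.37, exact permutation p = 0.0714) and 0.73 (SE 0.26, exact permutation p = 0.0476) had an adjusted p of 0.171 over the 12 ratio tests and did not pass.

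The other astrocyte genes, 56 in 7 lists by role, described how far these patterns held beyond the 10. In TRAP against WCH 51 of 56 were lower in each line, beside 31.5% (RBP4) and 41.8% (VGAT) of all genes. The 2 called higher in the VGAT line were the transcription factor genes Id4 (log2 0.63) and, named after its value was seen, Sox2 (0.79). In SNF against WCH 32 of 56 (RBP4) and 42 of 56 (VGAT) were higher, beside 13.4% and 19.3% of all genes. The medians of the 56 were 1.17 and 1.41 on the log2 scale. All 12 genes of transporters and ion handling were higher in both lines (medians 1.25 and 1.58), among them Atp1b2 (1.29 and 1.46), which encodes a subunit of the sodium pump, and Slc25a18 (1.32 and 1.11), which encodes a mitochondrial glutamate carrier. Receptor genes were higher in 5 and 6 of 6, among them Ntsr2 (1.37 and 1.66), a neurotensin receptor, and Grm3 (1.4 and 1.51), a metabotropic glutamate receptor. Enzyme genes were higher in 4 and 8 of 8, including the lipid enzymes Plpp3 (1.36 and 1.59) and Pla2g7 (1.45 and 1.90). Secreted and metal-binding genes were higher in 6 and 8 of 9, with the protease inhibitor gene Cst3 at 1.82 and 1.84, whereas the metallothionein gene Mt1 at 1.0 missed the threshold in the RBP4 line and was 1.06 in the VGAT line. Junction and endfoot genes were higher in 3 and 4 of 6, with Mlc1 at 1.80 and 2.03 and the connexin gene Gjb6 at 1.04, short of the threshold, and 1.25. Cytoskeleton and cytosol genes were higher in 2 and 4 of 6, including Ndrg2 (1.80 and 1.84) and the calcium-binding S100b (1.51 and 1.57).

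The 9 transcription factor genes (Sox2, Id3, Id4, Hes5, Rfx4, Lhx2, Gli2, Gli3, Nfia) stood with Sox9. In SNF against WCH 0 of 9 were called by edgeR in either line and 0 had an unadjusted p under 0.05, with medians of 0.01 and 0.21 and ranges of −0.48 to 0.62 and −0.63 to 0.55 on the log2 scale. Nfia was at 0.62 and 0.55 and Id4 at 0.01 and 0.21. This count depended on the scaling. DESeq2 called 2 and 4 of 9 higher, TMM factors 0 and 3, and no genes left out gave 0 higher in both lines and 2 lower in the VGAT line, as did the replicate block. The medians were 0.39 and 0.59 with TMM factors.

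**Figure D4:**
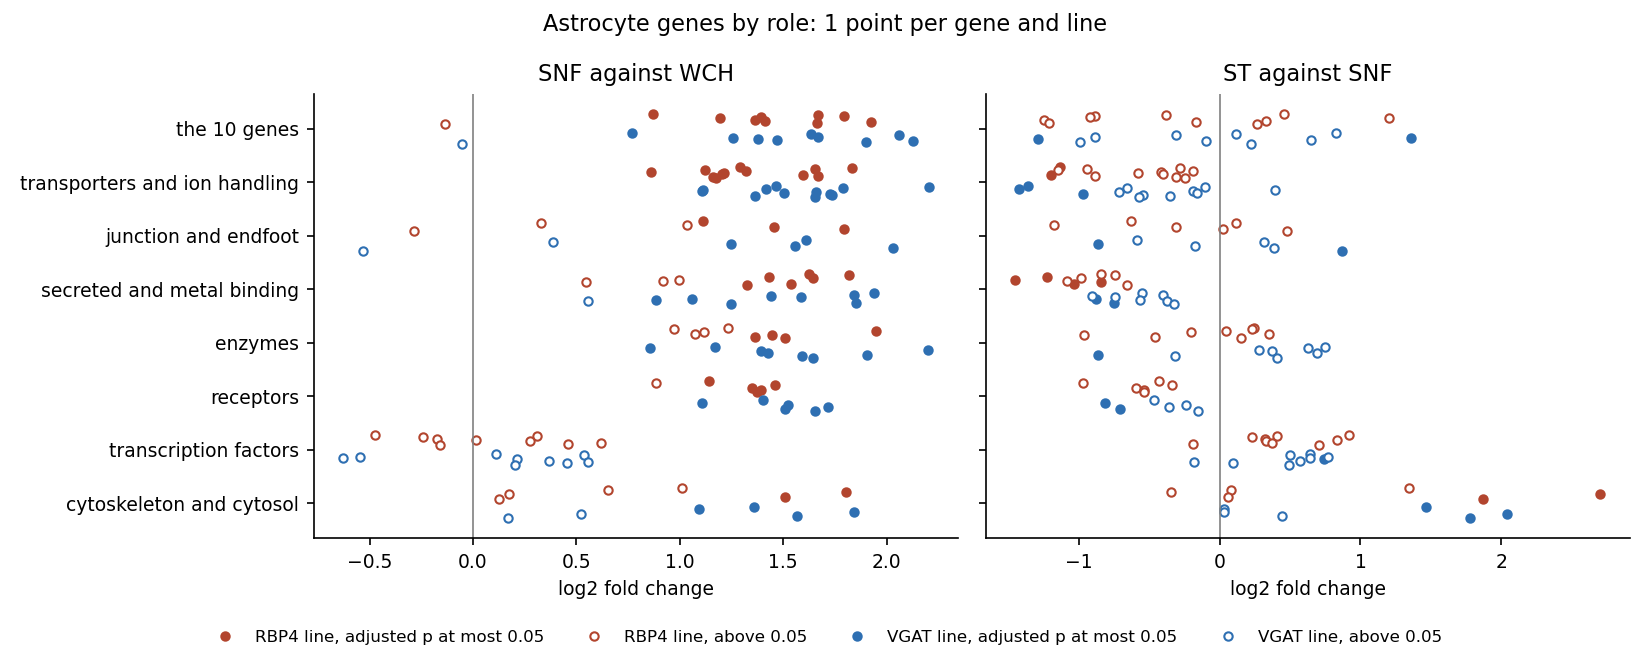
Log2 fold changes of the 10 astrocyte genes and the 56 others by role for SNF against WCH and ST against SNF, 1 point per gene and line, RBP4-TRAP in red and VGAT-TRAP in blue. All 12 transporter and ion-handling genes lay at 0.86 or more in SNF against WCH, and the 9 transcription factor genes lay between −0.63 and 0.62.

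Capture from the synaptoneurosome fraction was compared with that fraction itself, the counterpart of TRAP against WCH, and shares its SNF libraries with the comparison before it. In the RBP4 line 0 of the 10 genes passed the edgeR test in ST against SNF, beside 5.64% of all genes higher and 5.46% lower, while 5 had an unadjusted p under 0.05. Those were Gfap at 1.2, and Gja1, Slc1a3, Aqp4 and Apoe at −1.25, −1.21, −0.92 and −0.88 on the log2 scale. DESeq2 called 0, as did edgeR without the library labelled RBP4 ST replicate 4, and the likelihood ratio test called Gja1. With pools as blocks Gja1 was lower (−1.23, edgeR adjusted p = 0.0362). In the VGAT line Gfap was higher (1.36, SE 0.50, edgeR adjusted p = 0.0486) and Gja1 lower (−1.29, SE 0.41, edgeR adjusted p = 0.0212), beside 16.3% of all genes higher and 11.2% lower. The medians of the 10 genes were −0.27 and 0.01, against −0.05 and 0.08 over all genes.

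Gfap was at 175, 130, 214, 160 and 96.1 cpm in SNF of RBP4 replicates 1 to 5 and at 483, 157, 324, 712 and 102 cpm in ST. In VGAT replicates it was at 132, 136, 287, 128 and 162 cpm in SNF and at 592, 559, 544, 224 and 245 cpm in ST. The ST library was higher in 5 of 5 pools of each line, but the groups overlapped, and the highest RBP4 value came from the library labelled RBP4 ST replicate 4. The VGAT call for Gfap missed the threshold with DESeq2 (1.23, adjusted p = 0.095), with TMM factors (1.27, edgeR adjusted p = 0.0705), in the fit of all 40 libraries, and without VGAT replicate 1 (1.14), 2 (1.18), 4 (1.44) or 5 (1.49). It was 1.41 with pools as blocks (edgeR adjusted p = 0.0105), where Aldh1l1, at 0.83 (edgeR adjusted p = 0.0533) in the unblocked fit, also passed (0.94, edgeR adjusted p = 0.0174).

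Gja1 moved the other way. It was at 580, 526, 1166, 908 and 780 cpm in SNF of VGAT replicates 1 to 5 and at 328, 315, 414, 289 and 272 cpm in ST. Every VGAT ST library was below every VGAT SNF library, beside 6.38% of all genes. The call missed the threshold without VGAT replicate 4 (−1.2, edgeR adjusted p = 0.0925) or 5 (−1.24, edgeR adjusted p = 0.0821). In the RBP4 line Gja1 was at 941, 585, 1271, 472 and 640 cpm in SNF and at 374, 245, 646, 244 and 139 cpm in ST, lower in 5 of 5 pools with overlapping groups. Slc1a3 and Aqp4 were also lower in 5 of 5 pools of each line and did not pass the test. Slc1a2 had log2 differences of −0.17 (SE 0.44) and −0.10 (SE 0.44), with ST values of 4539, 3328, 17004, 15611 and 2692 cpm (RBP4) and 10677, 10200, 14856, 4640 and 3340 cpm (VGAT). The RBP4 ST libraries fell into 2 high and 3 low ones, and Slc1a2 was lower in ST in 4 of 5 RBP4 pools and 3 of 5 VGAT pools.

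Of the other 56 astrocyte genes, 2 were higher and 6 lower in ST against SNF in the RBP4 line, beside 5.64% and 5.46% of all genes. In the VGAT line 5 were higher and 9 lower, beside 16.3% and 11.2%. In both lines the share called higher was thus below that of all genes, and the share called lower above it. These shares were not tested against each other. The intermediate filament genes Vim (1.87 and 1.78) and Nes (2.70 and 2.04) were higher in both lines and were named after their values were seen. The genes lower in both lines included Atp1b2 (−1.14 and −1.36) and Mt1 (−1.46 and −0.88). Over all genes the RBP4 split of 962 higher to 931 lower was 1757 to 317 with no genes left out, and the VGAT split of 2771 to 1905 was 1987 to 2480 with TMM factors. Markers of other cell types moved with this step. The median sum of the 5 oligodendrocyte genes was 25319 and 35479 cpm in ST against 5161 and 5233 cpm in SNF, with Mbp higher by 2.73 and 3.06 on the log2 scale, and that of 5 endothelial genes (Cldn5, Pecam1, Flt1, Kdr, Tek) was 32.5 and 24.3 cpm against 10.9 and 16.1 cpm. The endothelial sums were spread widely in ST, from 6.65 to 247 cpm (RBP4) and from 11.5 to 156 cpm (VGAT). They overlapped those in SNF, which ran from 9.48 to 21.6 cpm and from 13.6 to 30.2 cpm. The microglia sum was 213 and 375 cpm against 370 and 524 cpm, and the neuron sum 7920 and 6212 cpm against 10718 and 10348 cpm. The part of these cells in the ST values was not tested.

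**Figure D5:**
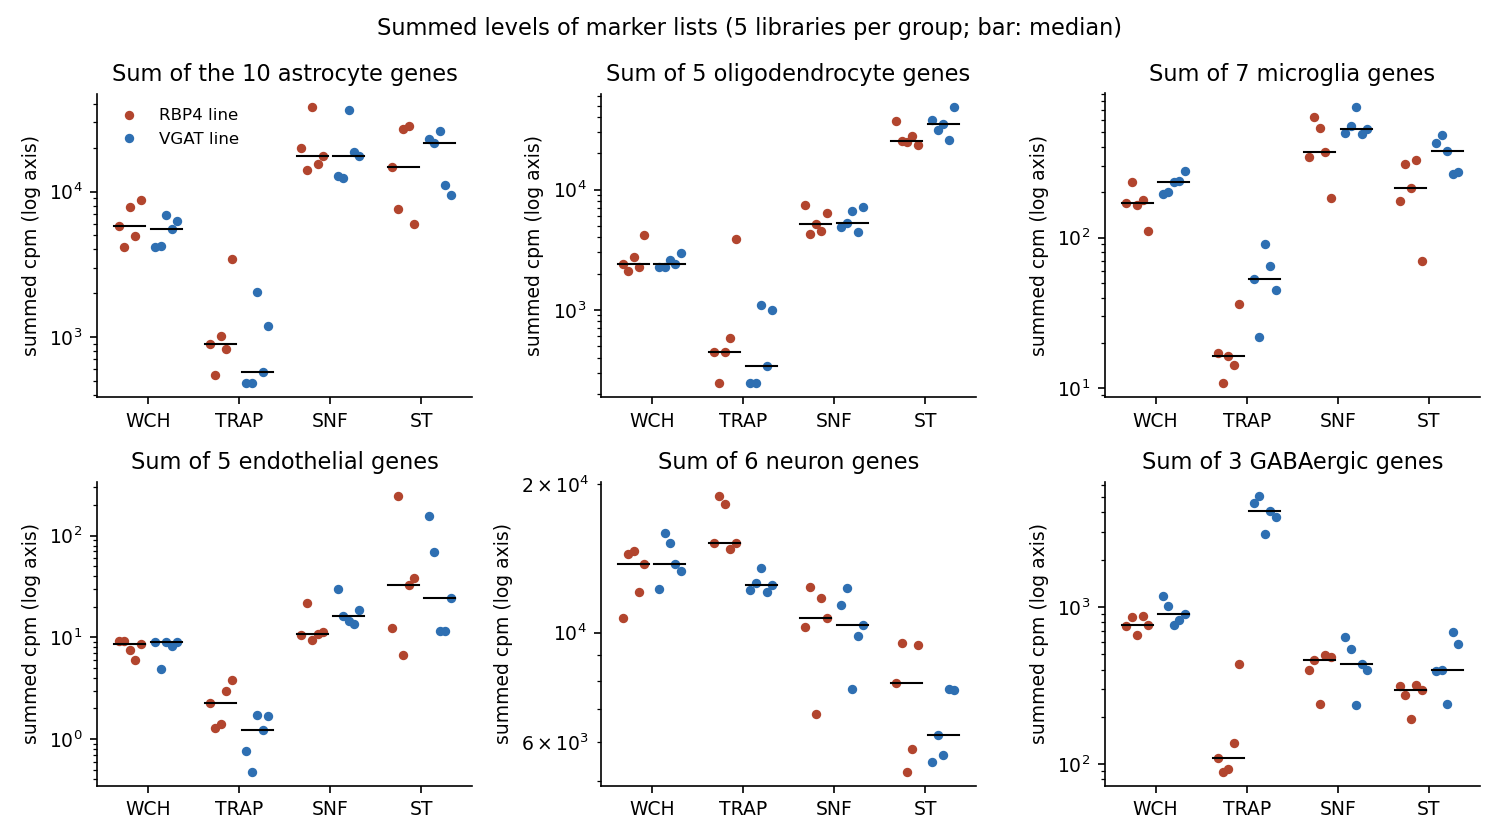
Summed cpm of the 10 astrocyte genes and of marker genes of oligodendrocytes, microglia, endothelial cells, neurons and GABAergic neurons in each library on log axes, by fraction, RBP4-TRAP in red and VGAT-TRAP in blue. The median astrocyte and oligodendrocyte sums were lowest in TRAP, and the oligodendrocyte median was highest in ST, at medians of 25319 and 35479 cpm.

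The captured RNA of the synaptoneurosome fraction was also set directly against that of the homogenate. All 10 genes were higher in ST than in TRAP in both lines, by 1.39 (Aldh1l1) to 4.77 (Gfap) on the log2 scale in RBP4-TRAP and by 2.76 (Sox9) to 5.00 (Slc1a2) in VGAT-TRAP mice, beside 26% and 37.5% of all genes. Without RBP4 replicate 5 the range was 1.79 (Aldh1l1) to 5.78 (Gfap), and without VGAT replicate 3 it was 2.90 (Sox9) to 5.69 (Gfap). The 10 calls were made in every alternative fit. Marker genes of other cell types were higher in ST than in TRAP as well. All 5 oligodendrocyte, 4 oligodendrocyte precursor, 7 microglia and 5 endothelial genes were called higher in both lines, with list medians of 3.21, 3.26, 3.65 and 5.58 (RBP4) and 3.80, 3.48, 2.996 and 5.27 (VGAT) on the log2 scale. The endothelial medians rest on levels near the floor, with sums of the 5 genes at 1.29 to 3.81 cpm (RBP4) and 0.475 to 1.72 cpm (VGAT) in TRAP. In the VGAT line both glutamatergic genes were also higher (median 2.22), and the 3 GABAergic genes lower (median −3.24). Their part in the rise of the astrocyte genes from TRAP to ST was not tested. The step from SNF to ST was set against that from WCH to TRAP, as the difference between ST less SNF and TRAP less WCH. This difference does not separate the capture from the make-up of the fractions, whose part was not tested. In the RBP4 line 7 of the 10 genes had a positive difference past the threshold, beside 17.1% of all genes, from 1.96 (Gja1) to 3.58 (Gfap). For VGAT 10 of 10 did, beside 34.7%, from 1.79 (Apoe) to 3.41 (Gfap). Gfap was at 4.50 without RBP4 replicate 5 and at 4.67 without VGAT replicate 3. Sox9 was at 2.44 (SE 0.50) and 2.82 (SE 0.43). The 3 RBP4 genes that missed the threshold were Slc1a3 (1.30), Aldoc (1.56) and Aldh1l1 (0.52). With pools as blocks Slc1a3 (1.72, edgeR adjusted p = 0.0366) and Aldoc (2.02, edgeR adjusted p = 0.0432) passed as well.

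These counts depended on single pools in the RBP4 line, with 2 genes past the threshold without replicate 1 or without replicate 4, 5 without replicate 3, 6 without replicate 2 and 9 without replicate 5. Without the library labelled RBP4 ST replicate 4 alone it was 6, with Slc1a2 at 1.80 (edgeR adjusted p = 0.0508). It was also 6 with DESeq2, TMM factors or DESeq2 size factors, each of which lost Gja1 (1.78, adjusted p = 0.0636 to 0.0648). The VGAT count was 7 to 10 without any 1 replicate and 7 with DESeq2 or TMM factors, which lost Aqp4, Slc1a3 and Apoe. The split over all genes, 2922 higher to 492 lower in the RBP4 line, was 2187 to 1433 with TMM factors, and 5900 to 2499 in the VGAT line was 4074 to 4097. Oligodendrocyte genes had positive differences too, 4 of 5 (RBP4) and 5 of 5 (VGAT) called.

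The study took as local translation candidates the genes that were higher in SNF than in WCH and higher in ST than in SNF. Its text does not state an unadjusted threshold for them, and an unadjusted p under 0.05 for each step was used here. Of the 10 genes this picked out Gfap for RBP4, and Gfap and Aldh1l1 for VGAT, and it chose 0.417% and 1.29% of all genes tested. With an edgeR adjusted p of at most 0.05 in both steps it was 0 genes for RBP4 and Gfap for VGAT. Over all genes the 71 and 220 candidates were 208 and 401 with TMM factors and 277 and 508 with DESeq2. Both steps of the rule use the SNF libraries, and Gfap met it without RBP4 replicate 2 or 5 but not without RBP4 replicate 1, 3 or 4, nor without the library labelled RBP4 ST replicate 4. In the VGAT line 0 of the 10 genes met the unadjusted rule without replicate 1 or without replicate 2, Gfap and Glul did without replicate 3, Gfap alone without replicate 4, and Aldh1l1 alone without replicate 5. The glutamate transporters did not meet it in either line.

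The TRAP libraries of the lines also differed in some of the other astrocyte genes. RBP4 was higher for 5 of 56 and lower for 5, smaller shares than the 12.9% and 15.1% of all genes, so that these calls say nothing particular about the list. Among them were S100b (1.73, SE 0.37), Nfia (1.13, SE 0.38) and Grm3 (0.93, SE 0.21), which were higher, and Id4 (−2.96, SE 0.36), which was lower. Chosen after their values were seen, Lhx2 was higher by 1.77 (SE 0.39) and Sox2 lower by 3.38 on the log2 scale in RBP4 TRAP. Some of these genes are also expressed by neurons, so that these differences cannot be assigned to a cell type here.

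Over the 8 group means of log2(cpm + 1), the genes outside the 10 with a profile most like the mean of the 10 included Aldh1a1, Adamts4, Hepacam and Plek, with Pearson correlations of 0.998 to 0.996. Those most like Slc1a2 alone were Col4a2, Scara3 and Fgfr3, at 0.997 to 0.996. Of the 10 themselves Aldh1l1 was the least like the mean, at 0.837, and Slc1a2 the most, at 0.992. The 8 means share their fractions and pools, so these values describe the profiles only.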

How the data were processed

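RNA of 40 libraries (2 lines, 4 fractions, 5 pools each) was sequenced after amplification with the SMARTer Ultra Low kit. Per the submitters' processing notes reads were aligned with STAR 2.0.4b and counted with featureCounts 1.4.5, and the genome release is not given in the sources used here. The authors deposited raw counts per gene. They also deposited CPM and RPKM values per gene, used here only to check the counts, which they matched to within 4.07e-10 CPM and 4.91e-11 RPKM, and to rank genes by mean RPKM.

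Mitochondrial (37), rRNA and tRNA (353) genes were left out of library sizes and no further factor was applied. Genes reaching 0.5 cpm in 3 or more libraries were tested with the quasi-likelihood F test of edgeR 4.0.16 (R 4.3.3), fitted within a line (20 libraries), on 30 WCH, TRAP and ST libraries between lines, or on all 40 for SNF between lines. P-values were adjusted over all genes tested (Benjamini-Hochberg), with an adjusted p of at most 0.05 as a call. Ratios were taken with no counts added and tested by exact permutation over libraries. Alternatives were the likelihood ratio test, DESeq2 1.42.0, TMM factors, DESeq2 size factors, no genes left out, other filters, all 40 libraries, pools as blocks and each pool left out. Leaving out RBP4 ST replicate 4 was chosen after seeing the data. The main edgeR fit was tested on simulated counts for TRAP against WCH of the RBP4 line only.

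Same-numbered libraries of a line come from 1 pool by protocol. Deviations from group means correlated at a mean r of 0.211 (RBP4) and 0.242 (VGAT) within numbers, against −0.053 and −0.060 between them. P-values of the main fits and main ratio tests measure the spread between the libraries of a group, and do not pair libraries of the same pool. Besides the 10 genes, the 2 genes of each list with the highest mean RPKM were named, and the genes most alike in profile. The genes and lists were chosen with earlier results of these data known. Of the lists, 1 oligodendrocyte and 1 transporter gene are not reported here and were left out of their lists' sums and counts. Python 3.11.15 was used with SciPy 1.17.1.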

Additional observations from a re-analysis of the deposited data

Results flagged for a closer look

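Of the 80 groups of 5 libraries (10 genes, 8 groups), 20 had a highest library whose gap to the next, over the range of the group, passed Dixon's critical value of 0.71. That value assumes normally spread values and was applied to cpm, so no chance rate is given. In the RBP4 TRAP library of replicate 5 these were Gfap (34.6 cpm), Slc1a3 (464), Aldh1l1 (83.5), Gja1 (85.2), Glul (176) and Aldoc (1538). In the VGAT TRAP library of replicate 3 they were Gfap (54.3 cpm), Sox9 (20.1) and Apoe (131). In the RBP4 SNF library of replicate 3 they were Slc1a2 (18203 cpm), Glul (1802) and Apoe (1437), and in the VGAT SNF library of replicate 3 Gfap (287 cpm), Slc1a2 (18229), Aldh1l1 (152), Sox9 (106), Glul (1677) and Apoe (1216). The others were Sox9 in RBP4 ST replicate 3 (163 cpm) and Aldh1l1 in VGAT WCH replicate 5 (55.4 cpm). Flags of 1 library are not independent of each other, since its genes share 1 library size and 1 sample.

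The difference between ST less SNF and TRAP less WCH passed the edgeR test for 7 of the 10 genes in the RBP4 line and for 10 in the VGAT line. The RBP4 count was 2 without replicate 1 or without replicate 4. Whether the capture or the make-up of the fractions lay behind it was not tested. The log2 differences of ST less SNF against TRAP less WCH that passed were, in the RBP4 line, Gfap 3.58, Glul 2.53, Sox9 2.44, Aqp4 2.40, Slc1a2 2.13, Apoe 2.10 and Gja1 1.96. In the VGAT line they were Gfap 3.41, Aldh1l1 3.05, Slc1a2 2.87, Sox9 2.82, Glul 2.53, Aldoc 2.17, Gja1 2.14, Aqp4 1.83, Slc1a3 1.80 and Apoe 1.79. Between lines, the step from TRAP to ST differed for Aldh1l1, with a log2 difference of −2.43 for RBP4 less VGAT.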

How the results depend on the processing

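The lower levels in TRAP (9 and 10 genes), the higher levels in ST than in TRAP (10 and 10) and the Aldh1l1 difference between the TRAP libraries were past the threshold in every fit run. Scaling turned small differences. Aldh1l1 in TRAP against WCH of the RBP4 line was 0.20 with DESeq2 or its size factors, 0.21 with TMM factors and 0.032 with no genes left out. Sox9 in SNF against WCH was 0.31 with DESeq2 or its size factors and 0.23 with TMM factors (RBP4), and 0.41, 0.40 and 0.32 (VGAT). In ST against SNF of the VGAT line Aldoc was −0.020 with DESeq2 or its size factors, and with no genes left out Slc1a2 was 0.12 (RBP4) and 0.21 (VGAT). The cause was not tested.

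In ST against SNF of the RBP4 line 1 gene was lower with the likelihood ratio test and with pools as blocks, and 1 higher with no genes left out. In the VGAT line 2 were higher with the likelihood ratio test, with no low-count filter, with 1 cpm in 5 libraries and with pools as blocks, 3 with no genes left out, and 0 with DESeq2, TMM factors, DESeq2 size factors or all 40 libraries. Between the TRAP libraries 2 genes (Aldh1l1, and Slc1a2 at 1.14) were higher in RBP4 with equal replicate numbers as blocks. Between lines, deviations from group means correlated at a mean r of 0.148 for equal numbers, against −0.033 for different ones. The pools of the lines differ, and what libraries of equal number share between lines was not tested. The candidate rule chose 0 (RBP4) and 1 (VGAT, Glul in place of Gfap and Aldh1l1) genes with no genes left out, 0 (RBP4) without RBP4 ST replicate 4, and 3 (VGAT, adding Glul) with pools as blocks or no low-count filter. With pools as blocks the Slc1a2 to Sox9 difference was 2.06 and 2.17 with an exact permutation p = 0.0625, the smallest that 5 pairs allow. The blocks changed no other call than those given here and in the results.

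Leaving out 1 replicate at a time gave 2 to 9 genes higher in SNF than WCH in the RBP4 line, 0 to 1 higher in ST than SNF (VGAT 0 to 3 higher, 0 to 1 lower), and 2 to 9 for ST less SNF against TRAP less WCH. Between TRAP libraries it gave 1 to 2 higher and 0 to 1 lower. Candidates numbered 0 to 2 in each line. Sox9 ranged from −0.38 to 0.071 (RBP4) and −0.35 to 0.12 (VGAT) in SNF against WCH. In ST against SNF the RBP4 ranges were −0.18 to 0.41 for Sox9 and −0.094 to 0.48 for Glul, and the VGAT ranges −0.29 to 0.050 for Slc1a2 and −0.18 to 0.47 for Aldoc. Slc1a2 over Slc1a3 in TRAP against WCH of the VGAT line ranged from −0.12 to 0.018, and Slc1a2 over Sox9 in SNF against WCH from 1.84 to 2.31 and 2.04 to 2.27, where 4 libraries a group left the test short of the threshold.

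Over all genes, calls in ST against SNF of the RBP4 line, 1893, ranged from 735 without RBP4 replicate 1 to 3002 with all 40 libraries, and those of ST less SNF against TRAP less WCH, 3414, from 1663 without RBP4 replicate 4 to 5457 without RBP4 replicate 5. Between lines, 55 calls in ST ranged from 7 to 195, 3 in SNF from 1 to 16 and 2 in WCH from 0 to 4. Depth limits the TRAP levels most, the lowest being Aqp4 at 1.63 cpm in RBP4 TRAP replicate 2, from 33 counts.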
